A study of Homo sapiens with 3 samples.

Results

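The protein genes of the cytosolic ribosome were followed in HepG2 cells, an established human hepatocellular carcinoma line, after treatment with etoposide, a topoisomerase II poison that causes DNA double-strand breaks. A gene was taken as a member when its symbol on the array was RPL or RPS followed by digits, with or without a final A or X, or was RPLP0, RPLP1, RPLP2 or RPSA. This rule, which used no measured value, found 77 of the 27274 genes on the array, carried by 152 of its 34127 probes, and each gene was read from its brightest probe. Of the members, 46 belonged to the large (60S) and 31 to the small (40S) subunit. The 3 conditions were untreated cells (0 μM, the control), cells given the low dose of etoposide (10 μM) and cells given the high dose (100 μM), all kept for 30 h, with 1 one-color array of total RNA for each. The array labels name the control untreated, whereas the paper names it DMSO. The study chose these doses to set genes of cells entering senescence beside those of cells entering apoptosis.

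A ribosome consists of ribosomal RNA and one copy each of most ribosomal proteins, which are made in the cytoplasm, imported into the nucleus and assembled in the nucleolus. Their mRNAs are among the most abundant of a growing cell, and most begin with a C followed by a run of pyrimidines, the 5′ terminal oligopyrimidine (TOP) tract, through which mTOR signaling controls their translation. When ribosome assembly is disturbed, RPL5 and RPL11, bound to 5S ribosomal RNA, can attach to the ubiquitin ligase MDM2 and stabilize p53.

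The RNA starts of members with contrasting values are shown because the TOP tract is the feature that these genes are known to share. Each line holds the 15 bases before and the first 15 bases from the transcription start annotated by RefSeq (GRCh38.p14), 5′ to 3′, with the run of C and T that begins at the start in capitals. RPSA (chr3:39406705-39406734, plus strand) had the lowest member value at the high dose, RPS12 (chr6:132814554-132814583, plus) had the highest, RPL11 (chr1:23691791-23691820, plus) binds MDM2, and RPL22 (chr1:6199581-6199610, minus) and RPS27 (chr1:153990747-153990776, plus) have paralogs with other values, RPL22L1 (chr3:170870181-170870210, minus) and RPS27L (chr15:63157463-63157492, minus).
RPSA: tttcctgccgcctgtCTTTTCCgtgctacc
RPS12: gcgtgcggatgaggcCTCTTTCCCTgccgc
RPL11: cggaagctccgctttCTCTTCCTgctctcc
RPL22: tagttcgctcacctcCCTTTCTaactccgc
RPS27: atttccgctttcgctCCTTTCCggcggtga
RPL22L1: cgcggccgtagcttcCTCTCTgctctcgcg
RPS27L: aagttgatgccgagcgcagatcgcttgcag
The run was 7 bases long in RPSA, RPL22 and RPS27, 10 in RPS12, 8 in RPL11 and 6 in RPL22L1, and the RPS27L window had none at the start. RPL11 had another annotated start without a run.

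A TOP-like start was scored as a C at the first transcribed base followed by 4 bases that are each C or T, read on the strand of the gene only. Of the 77 members, 62 were found among the RefSeq promoters, and 46 of them (74.2%) had at least 1 such start. Over all 27305 genes with a promoter, 5.14% did. Among mitochondrial ribosomal protein genes, which encode the separate ribosome of that organelle, it was 6 of 67 (8.96%). RPL23, RPL23A, RPL30, RPL37, RPL5, RPL7, RPL8, RPS15A, RPS2 and RPS20 were among the 15 not matched. The members with such a start had nearly the same median log2 difference to the control as the 16 matched members without one. These medians were −0.12 and −0.12 at the low dose, and −0.16 and −0.21 at the high dose.

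All 77 members were well above background on each of the 3 arrays, by the call of the scanner software. Signals below are background-subtracted intensities in arbitrary units, and they compare 1 probe across arrays, not 1 gene with another. The median member signal was 129176 in the control, 123763 with 10 μM and 94961 with 100 μM. No spot was saturated. Before genes were compared, each signal was divided by the 75th percentile of all probes of the same array, and this percentile was 514 in the control, 536 with 10 μM and 432 with 100 μM. Log2 differences are therefore relative to the array as a whole. In bulk RNA, fewer cells of a kind and less RNA per cell cannot be told apart. The spot SD beside a value is the spread of repeated spots within an array. With 1 array per condition, no difference has a replicate check and none was tested.

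The liver label was met by 8 of 8 liver markers, which (AFP, APOA1 and SERPINA1 among them) were well above background on all arrays. Of 6 markers of blood, connective tissue and endothelial cells, the collagens COL1A2 and COL3A1 were at background on every array, and 3 (PTPRC, CD3E and PECAM1) passed the background call. Their signals on the 3 arrays ranged from 131 to 288 for PTPRC, 34.6 to 52.9 for CD3E and 286 to 473 for PECAM1. Relative to the control, the median of these 3 was −0.73 at 10 μM and 0.41 at 100 μM, and all 3 were higher at 100 μM than at 10 μM. The 8 liver markers had medians of −0.01 and 0.49, and 8 of 8 were higher at 100 μM than at 10 μM. So were 59.6% of all genes above background. The part of either marker set in the results was not tested.

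At the low dose, nearly every ribosomal protein gene lay slightly below the control. The median log2 difference was −0.12 (quartiles −0.15 and −0.08), a ratio of 0.923, and 76 of 77 members were lower. Of all 15449 genes well above background on both arrays, 54.4% were lower and the median was −0.03. The members also lay close together, with an SD across genes of 0.065 without RPL27A, against 0.454 for all genes. The spot SD of a typical member difference was 0.059, taken for members spotted once from repeated probes near in signal. By it, 38 members were lower by more than 2 spot SD while 0 were higher by as much. The share of all genes past that margin was not computed. Large subunit genes had a median of −0.11 and small subunit genes of −0.12. Other genes of high signal lay nearer to the members than all genes did. The 822 other genes with a probe in the signal range of the members without RPL27A had a median of −0.07, with 62.2% lower and an SD of 0.293. For the 129 other genes over a signal of 65536 the median was −0.08, with 75.2% lower and an SD of 0.206, against a median of −0.10 for the 65 members over it.

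At the high dose, the members were further from the control and more spread out. The median was −0.17 (quartiles −0.25 and −0.09), a ratio of 0.887, with 67 members lower and 10 higher than the control. Among all 15465 genes above background, 42.7% were lower, 57.3% were higher and the median was 0.09. The members thus lay below a set of genes that, on this scale, leaned upward. The 822 other genes in the signal range of the members without RPL27A did not lean upward, with a median of −0.01 and 51.6% lower. The 129 other genes over a signal of 65536 had a median of 0.06 with 45.7% lower, against −0.15 for the 65 members over it. The large subunit genes had a median of −0.21 and the small subunit genes of −0.16. The SD across members was 0.142. By the spot SD, 52 members were lower by more than 2 spot SD, and 1 was higher. These counts rest on the reported scaling and on a spot SD that was not closely matched in signal. For all genes the share past that margin was not computed.

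**Figure D1:**
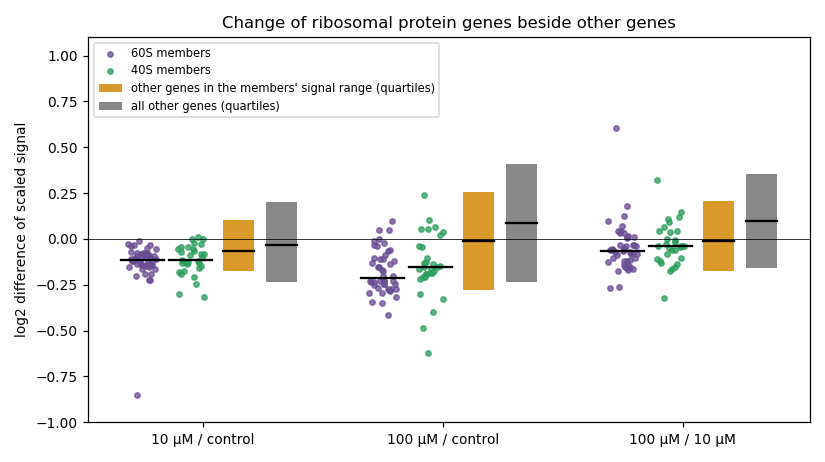
Log2 difference of scaled signal in the 3 comparisons. Points are the 46 genes of the 60S and the 31 genes of the 40S subunit, bars span the quartiles of other genes (orange for those with a probe in the members' signal range, grey for all), and black lines are medians. The medians of both subunits lay below that of all other genes in each comparison. 1 point at −0.85 in the first comparison is RPL27A.

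Between the doses, the size and direction of the member difference depended on the scaling. The median of the high dose over the low dose was −0.06 (quartiles −0.12 and 0.01), with 54 members lower and 23 higher. Of all 15434 genes, 40.4% were lower and 59.6% higher, with a median of 0.10. The member median was −0.37 without scaling, −0.32 with median scaling, −0.28 with spike-in scaling and −0.12 with quantile normalization. It was 0.01 with a percentile computed from every spot, in which repeated probes count several times. All 8 scalings or background settings tried beside the one reported gave member medians below 0 for both doses over the control. Over the 9 settings, 57 to 77 members were lower at the low dose, and 58 to 77 were at the high dose.

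The scaling set the size of the member differences. Without any scaling the high dose gave a median of −0.42, and with the spike-in controls it gave −0.34, whereas cyclic loess, which bends the scale with signal, gave −0.10. Some scalings moved the median of all genes by more than 0.1, to −0.17 without scaling and −0.21 with median scaling. Scalings that use 1 factor per array shift every gene alike, so by construction they leave the members' median relative to that of all genes as it is. It was −0.25 at the high dose, −0.08 at the low dose and −0.15 between the doses. With quantile normalization the member median relative to all genes was −0.00039 at 10 μM and −0.21 at 100 μM, and with cyclic loess it was −0.07 and −0.11.

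Few members passed a 1.5-fold difference. At the low dose 1 member was lower by more than 1.5-fold, RPL27A, where 6.45% of all 16714 genes were, and 0 were higher, where 9.05% of all genes were. At the high dose 1 was lower, RPSA, where 9.68% of 16976 genes were, and 0 were higher, where 18.4% were. Between the doses 1 was higher, RPL27A (14.2% of 16790 genes), and 0 were lower (7.49%). At a lower threshold, a log2 difference of 0.32, 7 members were lower at the high dose (RPSA, RPS3, RPL22, RPS15A, RPL5, RPL3 and RPS29), where 20.1% of all genes were, and 0 were higher, where 33% were. At the low dose RPL27A was the 1 member lower at that threshold (18.9% of all genes) and 0 were higher (18.5%). Between the doses RPSA was lower (15%) and RPL27A higher (30%). No member passed 2-fold. Of all genes, 3.37% were higher and 1.57% lower by 2-fold at 10 μM, 6.74% and 3.63% were at 100 μM, and 3.94% and 3.64% were between the doses.

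**Figure D2:**
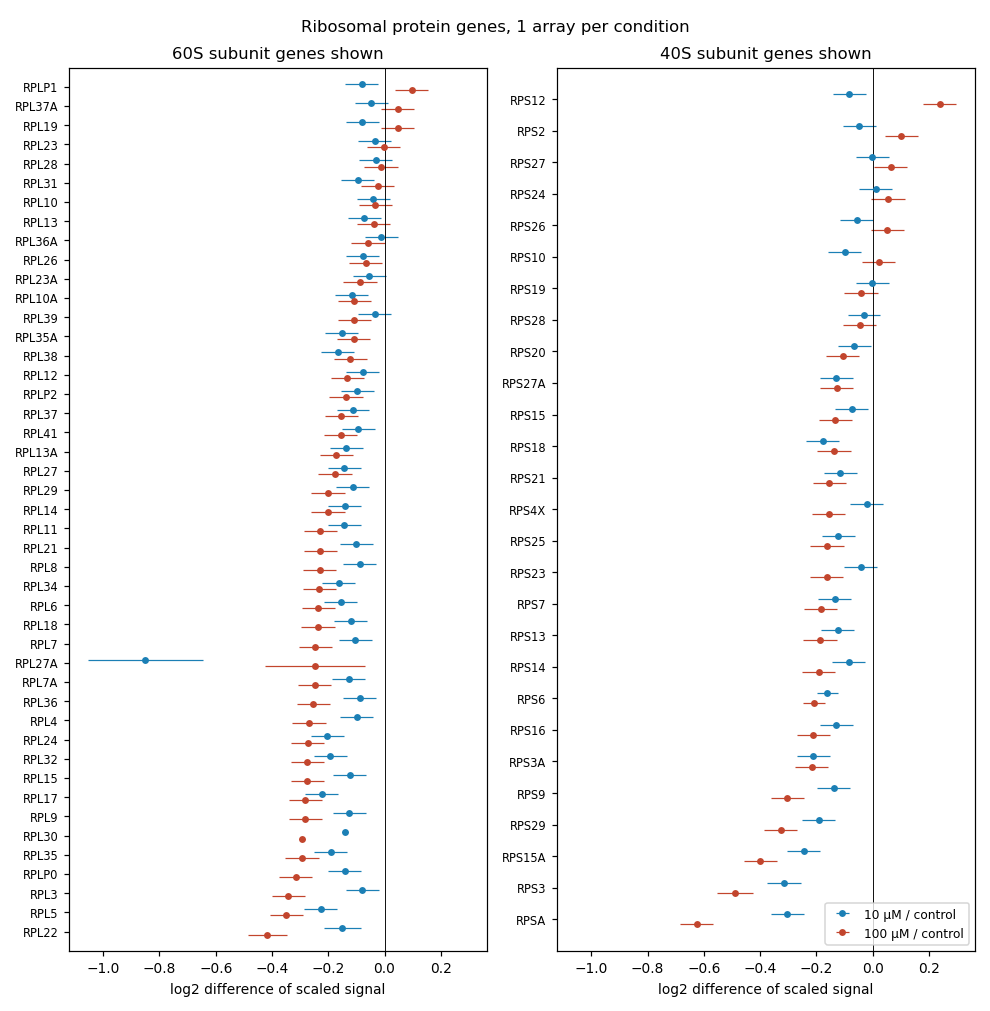
Log2 difference of scaled signal to control for most of the members (some are not shown), sorted by the value at 100 μM within each subunit. Blue points are 10 μM, red points are 100 μM and bars are the spot SD, which covers 1 array and not cultures. RPSA had the lowest and RPS12 the highest value at 100 μM, and the wide bars of RPL27A go with its signal of 41.9 to 72.4.

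RPSA, the 40S protein also known as the laminin receptor precursor, had the largest difference at the high dose. Its signal was 78790 in the control, 66629 with 10 μM and 42969 with 100 μM. This gave log2 differences of −0.30 and −0.63 with a spot SD of 0.059 each, or 1.54-fold lower at the high dose. The order control, low dose, high dose held for every probe of the gene.

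RPSA was measured by 4 probes of 60 bases, whose sequences are shown because all of them gave the same order. Positions are on hg18, plus strand, as the array files give them. Probe 1, the brightest, lies at chr3:39428403-39428462, probe 2 at chr3:39427403-39427462, probe 3 at chr3:39427435-39427493 and probe 4 at chr3:39428268-39428445. Probe 4 spans 178 bases of genome, so its match is interrupted. No base is in capitals, since no part is singled out.
RPSA probe 1: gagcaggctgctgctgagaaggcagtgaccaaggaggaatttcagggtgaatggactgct
RPSA probe 2: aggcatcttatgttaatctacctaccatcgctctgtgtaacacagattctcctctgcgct
RPSA probe 3: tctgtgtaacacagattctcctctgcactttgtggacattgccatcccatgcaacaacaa
RPSA probe 4: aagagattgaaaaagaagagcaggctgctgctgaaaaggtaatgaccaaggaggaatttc
Probes 1 and 4 share a stretch of 43 bases in which 3 differ, and probes 2 and 3 one of 29 bases in which 1 differs, so they are not independent of each other. Probe 2 read 37065 in the control, 30356 with 10 μM and 18838 with 100 μM. Probe 3 read 34974, 29120 and 18690, and probe 4 read 19610, 16262 and 10283. At the high dose the 4 probes ranged from −0.73 to −0.63. RPSAP52, named on the array as a pseudogene of RPSA, read 15613, 12537 and 8177 and had log2 differences of −0.38 and −0.68. How far such probes separate a gene from its processed copies was not tested.

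RPS3, a 40S protein at the mRNA entry site that also acts in DNA repair, came next at the high dose. Its signal was 22250 in the control, 18653 with 10 μM and 13341 with 100 μM, with log2 differences of −0.32 and −0.49. RPL22, an RNA-binding 60S protein, read 13970, 13128 and 8804, with −0.15 and −0.42. Its second probe gave −0.48 at the high dose. RPS15A, of the 40S subunit, read 108980, 96013 and 69511, with −0.24 and −0.40, and its 3 other probes gave −0.35 to −0.47. In these genes the signal before scaling was highest in the control and lowest with 100 μM, as was the median member signal.

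RPL3, which lies near the peptidyl transferase center, was closer to the control at the low dose. It read 132370 in the control, 130790 with 10 μM and 87824 with 100 μM, so its log2 difference was −0.08 at the low and −0.34 at the high dose. RPS29, a small zinc-binding 40S protein, read 111890, 102210 and 75070, with −0.19 and −0.33. Its probe for the transcript NM_001030001, at 764 in control cells, gave 0.22 at the high dose, opposite to its other 3 probes.

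At the top of the order was RPS12, a 40S protein of the beak region. Its signals were nearly equal, at 128930 in the control, 127040 with 10 μM and 127880 with 100 μM. After scaling this became −0.08 at 10 μM and 0.24 at 100 μM, since the percentile of the high-dose array was lower. Over the 9 scaling and background settings its value at the high dose ranged from −0.05 to 0.31 and was below 0 in 2 of them.

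The other 9 members above the control at the high dose included RPS2, RPLP1, RPS27, RPS24, RPS26, RPL37A, RPL19 and RPS10, and their values ran from 0.02 to 0.10. RPS2, a core 40S protein, read 385050, 388910 and 347610, with log2 differences of −0.05 and 0.10. RPLP1, an acidic protein of the stalk that recruits translation factors, read 213100, 210190 and 191640, with −0.08 and 0.10. Both lay within 2 spot SD of 0 at the high dose, and 3 of the 9 settings put RPS2 below the control.

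For 4 of those 10 genes (RPS2, RPS10, RPS26 and RPL37A) the array held several probes above background, and in each at least 1 other probe was below 0. RPS10, a 40S protein mutated in Diamond-Blackfan anemia, gave 0.02 on its brightest probe, which read 200740, 195560 and 171420. Its other 3 probes, all to the same transcript NM_001014, gave −0.33 to −0.36. The 2 other probes of RPS2 gave −0.35 and −0.46. The remaining 6 genes had 1 probe each.

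Dimmer probes gave lower values than the brightest in most members. Of the 40 members with more than 1 probe above background, the 73 dimmer probes gave a lower log2 difference at the high dose than the brightest probe of the same gene in 65 cases, by a median of −0.07. For genes of other families with a brightest probe over 65536, it was 39 of 60 probes, with the same median of −0.07. Over the member probes above a mean signal of 4096, the median at the high dose was −0.45 for 9 probes with a mean signal of 4096 to 16384, −0.34 for 13 probes up to 32768, −0.31 for 30 up to 65536, −0.23 for 53 up to 131072 and −0.11 for 35 above that. Dimmer member probes did not continue this order, with medians of −0.31 for 3 probes of 1024 to 4096, −0.13 for 2 of 256 to 1024, −0.21 for 4 of 64 to 256 and −0.25 for 1 below 64. Other genes, read from their brightest probes, had medians of −0.03, −0.05, −0.01, 0.00 and 0.26 in the 5 ranges above 4096. The part of signal strength in the member differences was not tested.

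**Figure D3:**
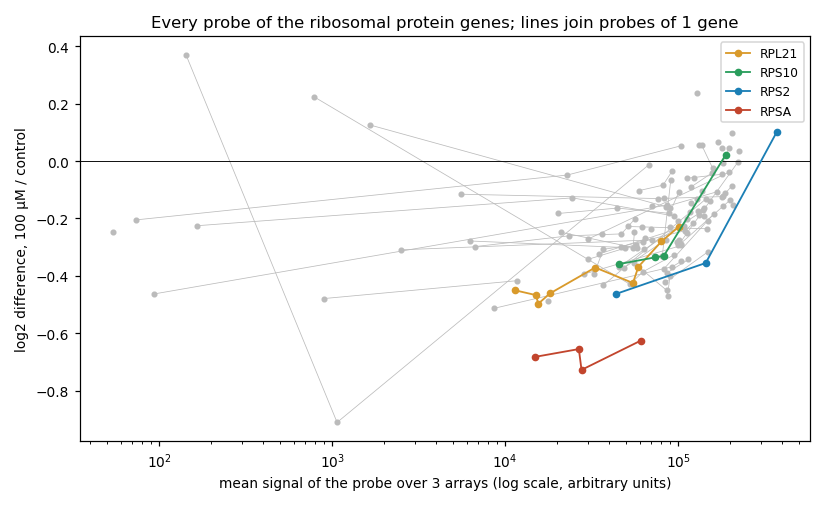
Log2 difference of 100 μM over control against the mean signal of the probe over the 3 arrays (log axis, arbitrary units) for the 150 member probes well above background. Lines join probes of the same gene. The dimmer probes of RPS2, RPS10 and RPL21 lay below the brightest of each gene, whereas the 4 probes of RPSA stayed between −0.73 and −0.63.

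Most member probes lay below the control whatever their signal. Of the 150 that passed the background call on each array, 145 were lower than the control at the low dose, 136 were lower at the high dose, and 119 were lower at the high than at the low dose. RPL21, a 60S protein with 9 probes, ranged from −0.50 to −0.23 at the high dose. The lowest came from a probe that the array files place on chromosome 10. The others lay on chromosome 13 and ranged from −0.47 to −0.23. Probes of 1 gene share the transcript and probes of abundant families can share sequence, so these counts are not of independent measurements.

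RPL28, a 60S protein, was measured by probes for several transcripts. The brightest, for NM_000991, read 71725, 73260 and 59800, with −0.03 and −0.01. The probe for NM_001136134 read 1545 in the control, 1139 with 10 μM and 692 with 100 μM, with −0.50 and −0.91, the lowest value of any member probe. That for NM_001136137, at 130 in the control and 157 with 10 μM, gave 0.21 and 0.37. The probes of this gene thus gave values in both directions, the upward ones on a dim probe. Other genes with a signal of 64 to 256 had a median of 0.17 at the high dose. Whether the transcripts differed was not tested.

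RPL27A was read from a dim probe. This single probe (chr11:8667668-8667727 on hg18) read 72.4 in the control, 41.9 with 10 μM and 51.3 with 100 μM. Whether so low a signal reflects the probe or the gene was not tested. Its log2 differences were −0.85 at 10 μM and −0.25 at 100 μM. With normexp background correction the first became −0.34 and the second 0.04. Without this gene the member medians were −0.11, −0.17 and −0.06.

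Repeated spots gave a check of precision for 3 members. RPL30, RPLP0 and RPS6 each had a probe printed 10 times. In the control the SD over these spots was 0.022 for RPL30, 0.033 for RPLP0 and 0.092 for RPS6. The median spot SD used for the members there was 0.043. The spots of RPS6 thus varied more than the SD used for most members, and those of RPL30 and RPLP0 varied less. Before scaling, the RPS6 spots ranged from 156780 to 188360 in the control and from 150420 to 174670 with 10 μM. With 100 μM they ran from 116200 to 138240. In these unscaled signals only the high dose stood clear of the other conditions. For RPLP0 the 10 spots ran from 97130 to 104390, from 90986 to 96953 and from 60776 to 65116, with no overlap. These ranges describe signals before scaling, within single arrays. The 75th percentile was lower on the high-dose array too, at 432 against 514 in the control and 536 with 10 μM. After scaling, RPS6 gave −0.16 at 10 μM and −0.21 at 100 μM, with spot SDs of 0.038 and 0.039. Whether the scaled spots overlap was not computed.

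The members tied to p53 were considered as a group, because MDM2 and p53 are the targets of free ribosomal proteins. All 15 (RPL5, RPL11, RPL22, RPL23, RPL26, RPL37, RPS3, RPS7, RPS14, RPS15, RPS20, RPS25, RPS26, RPS27 and RPS27A) were lower at the low dose, with a median of −0.11, and 13 were lower at the high dose, with a median of −0.15. RPL5 read 124540, 111040 and 82224, with −0.23 and −0.35, and its 2 other probes gave −0.37 and −0.51 at the high dose. RPL11 read 122990, 116240 and 88348, with −0.14 and −0.23. RPL23, which also binds MDM2, read 234450, 238740 and 196760, with −0.04 and −0.0032. The dimmer probe of RPL23 gave −0.07 and −0.29. RPL26, another MDM2-binding protein, read 98049, 96899 and 78717, with −0.08 and −0.07. The dimmer probe of RPL26 gave −0.13 and −0.33. The medians of all members were −0.12 and −0.17.

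MDM2 itself read 616 in the control, 4522 with 10 μM and 1652 with 100 μM, with log2 differences of 2.81 and 1.67. CDKN1A, the p53 target that encodes the cell cycle inhibitor p21, read 170, 1407 and 1010, with 2.99 and 2.82. MDM4, an MDM2 relative, gave 0.04 and 0.02. These genes were read on the same arrays on which RPL5 and RPL11 lay below the control.

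Of the members mutated in Diamond-Blackfan anemia, a red cell aplasia, 8 were listed, which are not all of them. The listed genes gave values on both sides of the control at the high dose on their brightest probes. Of the 8 genes 5 were lower, RPL5, RPL11, RPL35A and RPS19 among them, and RPS10, RPS24 and RPS26 were higher, with a median of −0.08. These 3 higher values were within 1 spot SD of 0, and the other probes of RPS10 and RPS26 were below 0. RPS24 was the only member above the control at the low dose on the reported scaling, at 136680, 143690 and 119410, with log2 differences of 0.01 and 0.05. RPS19 read 165770, 172880 and 135470, with −0.00060 and −0.04. At the high dose 67 of all 77 members were lower, and 42.7% of all genes above background were.

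RPLP0, the base of the stalk and a common reference gene in quantitative PCR, read 173660, 164280 and 117400, with −0.14 and −0.32. Its dimmer probe, printed 10 times, gave −0.16 and −0.42. RPLP2, its acidic partner, read 169900, 165770 and 129910, with −0.10 and −0.14. RPL13A, another common reference gene, read 157240, 149270 and 117420, with −0.14 and −0.17. Its dimmer probes gave −0.31 and −0.37 at the high dose. In unscaled signal RPLP0 and RPL13A were thus lower at the high dose by more than their scaled values show.

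A member and its paralog differed in direction or size in some pairs. RPS27L, a p53-inducible relative of the 40S protein RPS27, read 20935 in the control, 44623 with 10 μM and 31822 with 100 μM, with log2 differences of 1.03 and 0.85. RPS27 read 175610, 183150 and 154470, with −0.00051 and 0.06. The paralog exceeded RPS27 by 1.03 at 10 μM and 0.79 at 100 μM, with a spot SD of 0.083 and 0.084. RPS27L lay above the control under all 9 settings, from 0.97 to 1.09 at the low dose and from 0.56 to 0.92 at the high dose.

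The probes of this pair are printed because they cover nearly the same stretch of both genes, and the letters show how far these differ there. They lie on hg18 at chr1:152230677-152230736 (plus strand) for RPS27 and chr15:61234919-61234978 (minus strand) for RPS27L. Capitals mark the bases that differ within the 54 bases they share.
RPS27: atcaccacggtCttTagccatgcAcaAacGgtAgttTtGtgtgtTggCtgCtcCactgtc
RPS27L: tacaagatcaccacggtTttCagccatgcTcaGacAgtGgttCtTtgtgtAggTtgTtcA
In that stretch 42 bases are equal and 12 differ. The extent of cross-hybridization was not tested.

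RPL22 and RPL22L1 were both below the control. RPL22L1, a paralog of RPL22, read 37875 in the control, 29435 with 10 μM and 17736 with 100 μM, with −0.42 and −0.84, and lay below RPL22 by −0.27 and −0.43 on the log2 scale. RPL36AL, RPL10L, RPL26L1 and RPL7L1 stayed between −0.26 and 0.02 at both doses. RPL10L minus RPL10 was 0.00026 at 10 μM and −0.08 at 100 μM. The array files place the RPL36A probe on chromosome 11. How far the probes of these pairs separate the genes was not tested. RPL39L, at 124, 59.8 and 157, gave −1.12 and 0.59, and RPL3L, at 90.8, 65.5 and 51.9, gave −0.53 and −0.56.

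**Figure D4:**
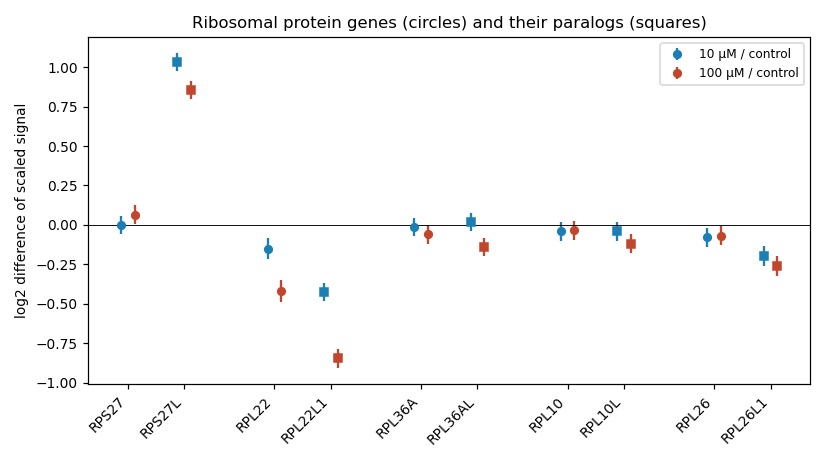
Log2 difference of scaled signal to control for 5 members (circles) and their paralogs (squares). Blue is 10 μM, red is 100 μM and bars are the spot SD. RPS27L lay 1.03 above RPS27 at 10 μM, and RPL22L1 lay below RPL22 at both doses. Cross-hybridization within a pair was not tested.

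Of 3 fusion or accessory genes of the ribosome, 2 were lower and 1 was higher at the low dose. All 3 were lower at the high dose, by as little as −0.0088. Shares of all genes above background that were lower were 54.4% and 42.7%. FAU, which encodes RPS30 as a fusion, read 78817, 80445 and 59089, with −0.03 and −0.17. GNB2L1, which encodes the scaffold RACK1, read 41159, 37756 and 26484, with −0.19 and −0.39.

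The proteins that escort single ribosomal proteins gave wider differences than the members. Of 12 such genes above background, 8 were lower at 10 μM and 10 at 100 μM, with medians of −0.28 and −0.26, and 5 were lower by more than 1.5-fold at the high dose, where 9.68% of all genes were. RPF2 and RRS1, which bring RPL5, RPL11 and 5S ribosomal RNA into the pre-60S particle, were the lowest. RPF2 read 3290 in the control, 2481 with 10 μM and 1200 with 100 μM, with −0.47 and −1.21. RRS1 read 2281, 1440 and 850, with −0.73 and −1.17. Both kept their direction under all 9 settings. Among all genes above background, 54.4% were lower at 10 μM and 42.7% at 100 μM.

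GTF3A, the transcription factor that drives and binds 5S ribosomal RNA, read 8291, 7002 and 4156, with −0.30 and −0.75. PDCD2L, which binds RPS2, read 2482, 1932 and 1016, with −0.42 and −1.04. LTV1, an assembly factor that binds RPS3, read 2260, 1805 and 1212, with −0.39 and −0.65. AAMP and HEATR3, the latter an import partner of RPL5 and RPL11, gave 0.02 and 0.07 at the high dose, and GLTSCR2, which binds RPL11, gave −0.15.

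Other RNAs with a known TOP tract were lower too, and by more at the median. All 21 were lower at the high dose, with a median of −0.35, and 19 were lower at the low dose, with a median of −0.15. NPM1, the nucleolar protein nucleophosmin, read 141920, 99554 and 56732, with −0.57 and −1.07. NAP1L1, a histone chaperone, read 5796, 5184 and 2417, with −0.22 and −1.01. EEF2 was near the upper end of the list at the high dose, at −0.08. The list shares some genes with the elongation and initiation factors. For all genes above background, the shares lower were 42.7% at the high dose and 54.4% at the low dose.

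Among initiation factors, 24 of 35 were lower at the high dose, with a median of −0.26, and 4 were lower by more than 1.5-fold, where 9.68% of all genes were. EIF2S2, a subunit of the factor that delivers the initiator tRNA, read 2653, 2156 and 1203, with −0.36 and −0.89. EIF3J, a loosely bound eIF3 subunit, read 989, 790 and 506, with −0.39 and −0.72. EIF4G3 and EIF5 were the highest, both at 0.14. The median at the low dose was −0.06. In all genes above background, 42.7% were lower at the high dose.

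Of 9 elongation factors, 8 were above background on all arrays, and all 8 were lower at the high dose, with a median of −0.18. The remaining gene, EEF1A2, read 12.6 in the control, 23.6 with 10 μM and 42.2 with 100 μM, opposite to the others, and passed the background call on 1 array. EEF1E1, an accessory protein of the synthetase complex, read 4088, 3562 and 1883, with −0.26 and −0.87. EEF2, which moves the ribosome along the mRNA, had another order, with 19476 in the control, 12020 with 10 μM and 15487 with 100 μM. Its log2 differences were −0.76 and −0.08, so the low dose was the lowest of the 3 conditions. The share of all genes above background that were lower at the high dose was 42.7%.

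**Figure D5:**
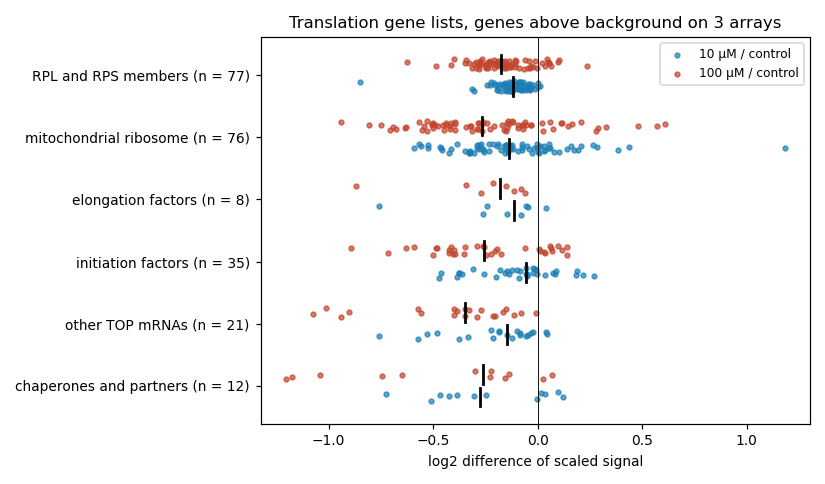
Log2 difference of scaled signal to control for the members and 5 lists of other translation genes well above background on all arrays. Each point is a gene, blue is 10 μM, red is 100 μM and black lines are medians. By SD at 100 μM, the members were the most tightly grouped of the 6, and each other list held at least 1 gene at −0.87 or lower at 100 μM.

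The mitochondrial ribosome gave lower medians than the cytosolic one, with far more spread. Of its 76 genes, 54 were lower at 10 μM and 61 at 100 μM, with medians of −0.14 and −0.27 and an SD of 0.315 at the high dose. At that dose 8 were lower by more than 1.5-fold, where 9.68% of all genes were, and 1 was higher, where 18.4% were. MRPL11 read 6751, 5392 and 2962, with −0.39 and −0.94, and MRPL48 read 2291, 1624 and 1100, with −0.56 and −0.81. At the other end MRPS11 read 3355, 4737 and 4303, with 0.44 and 0.61, and MRPL49 read 2000, 4739 and 2501, with 1.18 and 0.57. By any amount, 54.4% of all genes above background were lower at 10 μM and 42.7% at 100 μM.

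The genes that set TOP mRNA translation were mixed. Of 13, 5 were lower at 10 μM and 7 at 100 μM, where 54.4% and 42.7% of all genes above background were. DDIT4, an inhibitor of mTOR signaling, was the lowest, at 7298, 4136 and 1245, with −0.88 and −2.30. EIF4EBP1, the repressor of cap-dependent translation that mTOR inactivates, read 11074, 8496 and 4625, with −0.44 and −1.01. SESN1, a p53-inducible inhibitor of mTOR signaling, read 172, 560 and 313, with 1.65 and 1.12. TSC1, part of the complex that restrains mTOR, gave 0.12 and 0.49, and LARP1, which binds TOP mRNAs, gave −0.32 and −0.42. The translation of the members was not measured on these arrays.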

How the data were processed

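Total RNA of HepG2 cells was measured with Cy3 on 1-color Agilent arrays, with 1 array for each of 3 conditions assigned from the labels. The authors deposited the scanner output of Agilent Feature Extraction (version 10.7.3.1), in which the intensity of each spot is background-subtracted but not scaled between arrays. The deposited table of the series held equal values for all 44495 spots of each array (relative tolerance 1e-06). No normalization is given in the sources used here. Precision is limited by the number of arrays.

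From the deposited intensity, control and outlier spots were left out, log2 values of the spots of a probe were averaged, and the 75th percentile of each array over probes was subtracted. A difference counted as past a fold threshold only where the brighter condition was well above background. The spot SD came from the 50 repeated probes nearest in signal. The steps were tested on simulated data. The alternatives were 7 other scalings, normexp background correction (offset 50), other rules for outliers, dim probes and several probes, the series table and other folds. Python 3.11.15, pandas 2.3.3, numpy 2.4.6, R 4.3.3 and limma 3.58.1 were used.

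The members, lists and alternatives were chosen with earlier results of these data known. Genes named were the 4 highest and 4 lowest members in each comparison and members past 1.5-fold. Others were members linked to MDM2 and p53, some members mutated in Diamond-Blackfan anemia, stalk and reference genes, paralogs, and extremes of each list. RPS2 and RPS10 probes, RPL21, RPL28, RPSAP52, RPS6, RPL30, RPL19, LTV1, PDCD2L, GTF3A, GLTSCR2, EEF1A2 and LARP1 were chosen after their values were seen. Some genes that the rule selects are not reported here. Gene names and hg18 positions are those of the array files, and promoters are from RefSeq (GRCh38.p14).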

Additional observations from a re-analysis of the deposited data

How the results depend on the processing

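The member medians for both doses over the control stayed below 0 in every setting run, and their size followed the scaling. For the low dose the median over all members, the 60S and the 40S genes was −0.0545, −0.0536 and −0.0545 without scaling and −0.0333, −0.0357 and −0.0254 with quantile normalization. For the high dose these were −0.42, −0.46 and −0.41 without scaling, −0.46, −0.50 and −0.44 with median scaling, −0.10, −0.14 and −0.0858 with cyclic loess, −0.11, −0.16 and −0.10 with the percentile over all spots, and −0.34, −0.39 and −0.33 with spike-in scaling. With normexp all members gave −0.24 and the 40S genes −0.24. For the high over the low dose they were −0.37, −0.38 and −0.35 without scaling, −0.32, −0.33 and −0.31 with median scaling, −0.12, −0.13 and −0.12 with quantile normalization, and −0.28, −0.29 and −0.27 with spike-in scaling. With normexp all members gave −0.12 and the 40S genes −0.11. This comparison turned to 0.0128, 0.0029 and 0.0275 with the percentile over all spots, which by construction counts repeated probes several times.

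The count of members lower by more than the fold at the high dose was 6 without scaling, 9 with median scaling, 3 with spike-in scaling, 7 at a log2 threshold of 0.32, and 0 with quantile normalization, cyclic loess, the percentile over all spots or a 2-fold threshold. At the low dose it was 0 with normexp or at 2-fold. Between the doses 1 was lower without scaling, with median scaling or at a log2 threshold of 0.32, and 0 were higher without scaling, with median, quantile or spike-in scaling, cyclic loess, normexp or at 2-fold. Of 744 values of single genes under the scaling and background settings, 390 moved by more than the spot SD and 354 did not. Of these, 0 changed the sign of a called value, meaning a value past the fold threshold. Smaller values did change sign between settings, such as RPS12 (−0.05 to 0.31) and RPS2 (−0.19 to 0.18) at the high dose. Leaving out RPL27A or taking the dimmest probe above background, both chosen after seeing the data, gave −0.17 and −0.23 at the high dose.

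No paired analysis was possible because every dose had a single array, and for the same reason no array was left out in turn. The spot SD does not cover cultures or RNA preparations, and the change of the member values with probe signal limits the reading of small differences among the brightest probes.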
